A study of Mus musculus with 6 samples.

Results

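The 6 arrays of microdissected mouse adrenal medulla were split by how strongly their RNA signal leaned towards the 3′ end of transcripts. The split used 1 value per array, the log2 intensity of the 3′ control probe set of Gapdh (a glycolysis enzyme read by the array's own quality controls) minus that of its 5′ control. The 3 arrays with the largest difference, sham 1, TAC 1 and TAC 3, are called the strong arrays, and the other 3, sham 2, sham 3 and TAC 2, the weak arrays. They come from male C57/Bl6 mice, studied 8 weeks after surgery, which either constricted the transverse aorta and so raised the pressure load on the heart (TAC) or was a sham operation. No genotype, age or further treatment is given in the labels. Each Affymetrix Mouse Genome 430 2.0 array held RNA from both medullae of 1 animal, copied in 2 rounds of amplification, so the replicates are separate animals. The split is a technical one and no group of the study: 1 sham and 2 TAC arrays were strong, 2 sham and 1 TAC weak, and surgery was therefore kept as a covariate. Of 45101 probe sets, the 18188 with log2 4 or more on at least 3 arrays were compared; these read 10181 genes by a single symbol. The number of arrays limits the precision.

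In this kind of array, copying starts at the poly-A tail and runs towards the 5′ end of the message. Where RNA is broken, or copying stops early, a probe far from the tail finds less target than a probe near it, and the same message can look intact to one probe set and reduced to another. Messages also differ in how long they last in a cell: immediate early transcripts decay within a short time, while many metabolic and secretory messages are long-lived, and some long noncoding RNAs stay in the nucleus and are never translated. The adrenal medulla consists of chromaffin cells, which make and store adrenaline and noradrenaline, with glia-like sustentacular cells, ganglion neurons, vessels, connective tissue and macrophages between them.

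The Gapdh 3′ minus 5′ difference that chose the arrays was 5.15 on sham 1, 4.71 on TAC 1 and 3.98 on TAC 3. It was 3.67 on TAC 2, 3.08 on sham 2 and 2.88 on sham 3. TAC 3, the strong array nearest the split, and TAC 2, the weak array nearest it, lay 0.31 apart. Beta-actin, whose controls took no part in the choice, had a 3′ minus 5′ difference of 7.93, 6.83 and 5.69 on sham 1, TAC 1 and TAC 3, and of 4.58, 3.31 and 3.93 on TAC 2, sham 2 and sham 3. Every strong array lay above every weak one, by 2.87 on average (6.82 ± 1.12 against 3.94 ± 0.64, SD, n = 3 each; exact two-sided permutation p = 0.1, the smallest that 3 against 3 arrays allow; 0.173 after Benjamini-Hochberg adjustment over 26 array measures). The gap lay at the 5′ end: the 5′ control read 4.52, 4.34 and 5.35 on sham 1, TAC 1 and TAC 3 against 6.83, 8.79 and 8.33 on TAC 2, sham 2 and sham 3, while the 3′ control differed by -0.37 (exact p = 0.5). The 18S ribosomal RNA controls also separated the sides. Their 3′ minus 5′ difference was -0.12, 0.58 and 0.64 on sham 1, TAC 1 and TAC 3 and -0.54, -1.28 and -0.84 on TAC 2, sham 2 and sham 3, so 1.26 higher on the strong arrays (exact permutation p = 0.1; every array measure with this p has an adjusted p of 0.173).

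**Figure D1:**
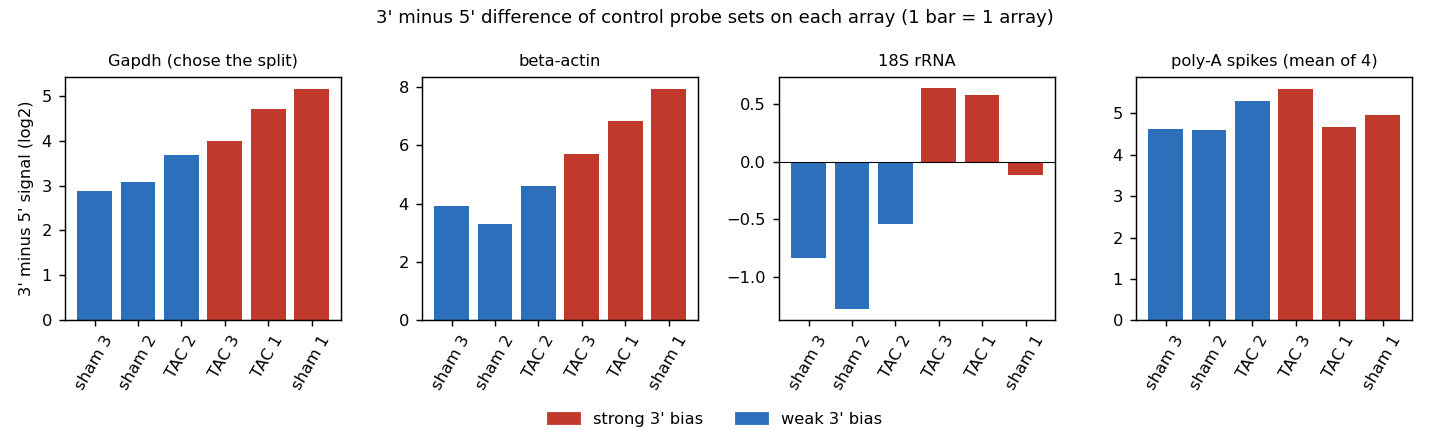
The 3′ minus 5′ log2 difference of 4 sets of control probe sets is plotted for each array, 1 bar per array, ordered by the Gapdh value and coloured by side (red strong, blue weak). Beta-actin runs from 3.31 to 4.58 on the weak and from 5.69 to 7.93 on the strong arrays, and 18S also separates them, whereas the spiked bacterial transcripts overlap.

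Transcripts added from outside were read in the same way. Over 4 bacterial poly-A transcripts, spiked in before amplification, the mean 3′ minus 5′ difference was 4.96, 4.67 and 5.60 on sham 1, TAC 1 and TAC 3 and 5.30, 4.60 and 4.61 on TAC 2, sham 2 and sham 3, with overlap between the sides (difference 0.24, exact permutation p = 0.5; without TAC 3 it was -0.02). Of the 4, the lys transcript alone separated the sides, with a difference of 0.52 (exact permutation p = 0.1). Their 3′ level stood higher on every strong array, at 11.07 ± 0.03 against 9.82 ± 0.77 (SD, n = 3 each), as did the hybridisation controls at 11.58 ± 0.26 against 10.003 ± 0.439 (exact permutation p = 0.1 for both). The transferrin receptor and pyruvate carboxylase controls lay near background at their 5′ ends on all 6 arrays and gave no order of the sides (differences of 0.01 and -0.42; exact permutation p = 0.7 and 0.2). No separate measurement of RNA length was used here, so shortened RNA and shortened copies cannot be told apart.

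The side of the split was the main pattern in the data. The first principal component of the tested probe sets held 69.2% of the variance. It placed sham 1 at 103, TAC 1 at 80.0 and TAC 3 at 19.4, and the weak arrays between -69.5 and -66.4, while the second component, with 16.5%, separated TAC from sham. TAC 3 lay nearer the weak arrays on the first component than the other strong arrays did. The median tested probe set read 6.31 to 6.68 on the strong and 6.89 to 7.01 on the weak arrays. The fitted strong minus weak difference had a median of -0.44 over all tested probe sets, so differences of gene classes are given below both as fitted and relative to this median. With 1 probe set for each of the 10181 genes, as in the gene lists, the median was -0.53. In limma with surgery as a covariate, 42.1% of probe sets passed an adjusted p of 0.05 (7662 of 18188): 10.2% were higher and 32.0% lower on the strong arrays. With each array centred on its own median, 5934 probe sets passed, 19.8% of all higher and 12.8% lower. The share of lower calls fell from 75.9% to 39.2%, so the direction of a small difference depends on the scaling.

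The count of calls depended on single arrays. Sham 1, the array with the strongest 3′ lean, is also the only strong sham array. Its removal leaves TAC 1 and TAC 3 against TAC 2 as the only contrast within a surgery, with a median difference of -0.40. A loss of calls then cannot be laid on the values of sham 1 alone. Without it no probe set passed (limma, smallest adjusted p = 0.0965), with 4684 at an unadjusted p under 0.05. Without sham 2, sham 3 or TAC 2 the count was 1358, 1893 and 2750. The sizes of the differences did recur in arrays that share no animal. Sham 1 minus the mean of sham 2 and sham 3 and the mean of TAC 1 and TAC 3 minus TAC 2 correlated across 18188 probe sets with Pearson's r = 0.84 and Spearman's rho = 0.83. Probe sets are not independent replicates, and the value is a description. The sign was the same for 86.7% of probe sets, and for 82.8% after centring. The spread was wider within sham (SD over probe sets 1.21) than within TAC (0.89), and the test of the difference between them, an interaction term in limma, called 0 probe sets, with 1051 at an unadjusted p under 0.05.

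**Figure D2:**
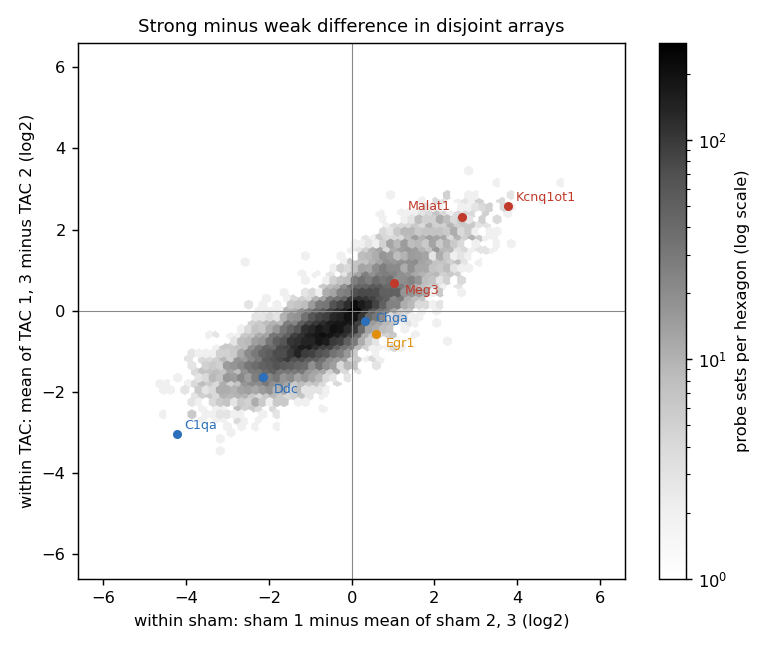
Each hexagon counts probe sets (grey, log scale) by their strong minus weak log2 difference within sham (x axis, sham 1 minus the mean of sham 2 and 3) and within TAC (y axis, mean of TAC 1 and 3 minus TAC 2); 7 genes are marked. Most probe sets lie along 1 diagonal (r = 0.84), with Kcnq1ot1 and Malat1 at its upper end, C1qa at its lower end, and Egr1 off it with opposite signs in sham and TAC.

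Noncoding and unannotated transcripts lay above the median of all probe sets, and for those without a symbol the distance shrank at higher signal. Of 2038 tested probe sets without a gene symbol, 894 were called higher and 270 lower on the strong arrays. These are 43.9% and 13.2%, against 10.2% and 32.0% of all tested probe sets. The median difference of the class was 0.65, which is 1.09 above that of all probe sets. Centred on each array's median, the mean of this class stood at -0.04, -0.28 and -0.56 on sham 1, TAC 1 and TAC 3 and at -1.39, -1.24 and -1.32 on TAC 2, sham 2 and sham 3, without overlap. Part of this class passed the filter only through the strong arrays, so these counts are no support by themselves: 315 of its probe sets were under log2 4 on all weak arrays, against 20 the other way round. Among the 1277 at log2 4 or more on all 6 arrays, 30.6% were called higher and 16.4% lower, against 6.54% and 31.5% of all such probe sets, and the median was 0.17, or 0.63 above theirs. Split by mean signal into 4 bins of equal size over all tested probe sets, the class had medians of 0.92, 0.85, -0.15 and -0.45 from the lowest to the highest bin. In the highest bin 9.52% were called higher and 25.1% lower, so the class was not higher there. Genes that RefSeq classes as long noncoding RNA (269 probe sets) had a median of 0.25, 0.69 above all, and transcribed pseudogenes (48 probe sets) one of 0.39, 0.83 above all. Of these, the 197 and 28 at log2 4 or more on all arrays had medians of 0.16 and 0.25. RIKEN clone and predicted genes (323) stood at -0.01, 0.43 above all. Of them 50 were called higher and 61 lower (15.5% and 18.9%, against 4.14% and 34.2% over all genes). All tested probe sets had medians of 0.06, -0.42, -0.65 and -0.57 from the lowest to the highest signal bin, so dim probe sets of any kind stood higher. The median signal was 5.46 for the long noncoding RNA genes, 5.79 for the pseudogenes and 5.68 for the RIKEN and predicted genes, against 6.65 over all. The part of low signal in the medians of these classes was not tested. On the 1499 probe sets whose probes can also bind other transcripts, marked by the array maker with the suffix x, the median was -0.14, 0.30 above all. The array's repeat controls also read higher on the strong arrays. B1, a short interspersed repeat, read 13.11 ± 0.05 on the strong and 12.01 ± 0.29 on the weak arrays. B2 read 15.72 ± 0.36 and 14.93 ± 0.26 (SD, n = 3 each, exact permutation p = 0.1 for both). These differences were 1.09 and 0.79, and that of a second B2 control was 2.18. Controls added from outside stood higher as well, by 1.26 for the 3′ level of the spikes and 1.58 for the hybridisation controls. The rise was thus not particular to repeats.

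Among 19 named long noncoding and nuclear RNAs that passed the filter, of 21 on the array, 14 had higher values on the strong arrays, 4 were called higher and 1 lower; over all genes 38.3% were called, 4.14% higher and 34.2% lower. Their median difference was 0.21, or 0.65 above that of all probe sets. With arrays centred, 8 were called higher and 1 lower. Centred on each array's median, the list's mean read 2.52, 2.52 and 1.82 on sham 1, TAC 1 and TAC 3 and 1.25, 1.60 and 1.54 on TAC 2, sham 2 and sham 3. Kcnq1ot1, an antisense RNA that silences an imprinted gene cluster, read 10.60, 9.68 and 8.42 on sham 1, TAC 1 and TAC 3 and 6.48, 6.68 and 6.95 on TAC 2, sham 2 and sham 3. The groups did not overlap, and the difference was 9.04-fold (3.18 ± 0.44 SE, limma adjusted p = 0.0089). Malat1, an abundant RNA of nuclear speckles, read 12.41, 11.12 and 9.37 against 7.94, 9.48 and 10.003 in the same order of arrays. TAC 3 overlapped the weak sham arrays, but within each surgery the strong arrays were higher, and the fitted difference was 2.49 ± 0.49 (SE, adjusted p = 0.0175). Meg3, a maternally expressed imprinted RNA of neuroendocrine cells, read 14.83, 14.53 and 15.03 against 14.10, 13.79 and 13.85, a difference of 0.85 ± 0.22 (SE, adjusted p = 0.0301) without overlap. Snhg11, a host RNA of a small nucleolar RNA, was higher by 1.59 ± 0.30 (adjusted p = 0.0153), also without overlap. Neat1, the scaffold of nuclear paraspeckles, differed by 1.17 but missed the threshold (limma adjusted p = 0.068), and Tug1, another long noncoding RNA, was the 1 member called lower, by -1.85 (adjusted p = 0.018).

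**Figure D3:**
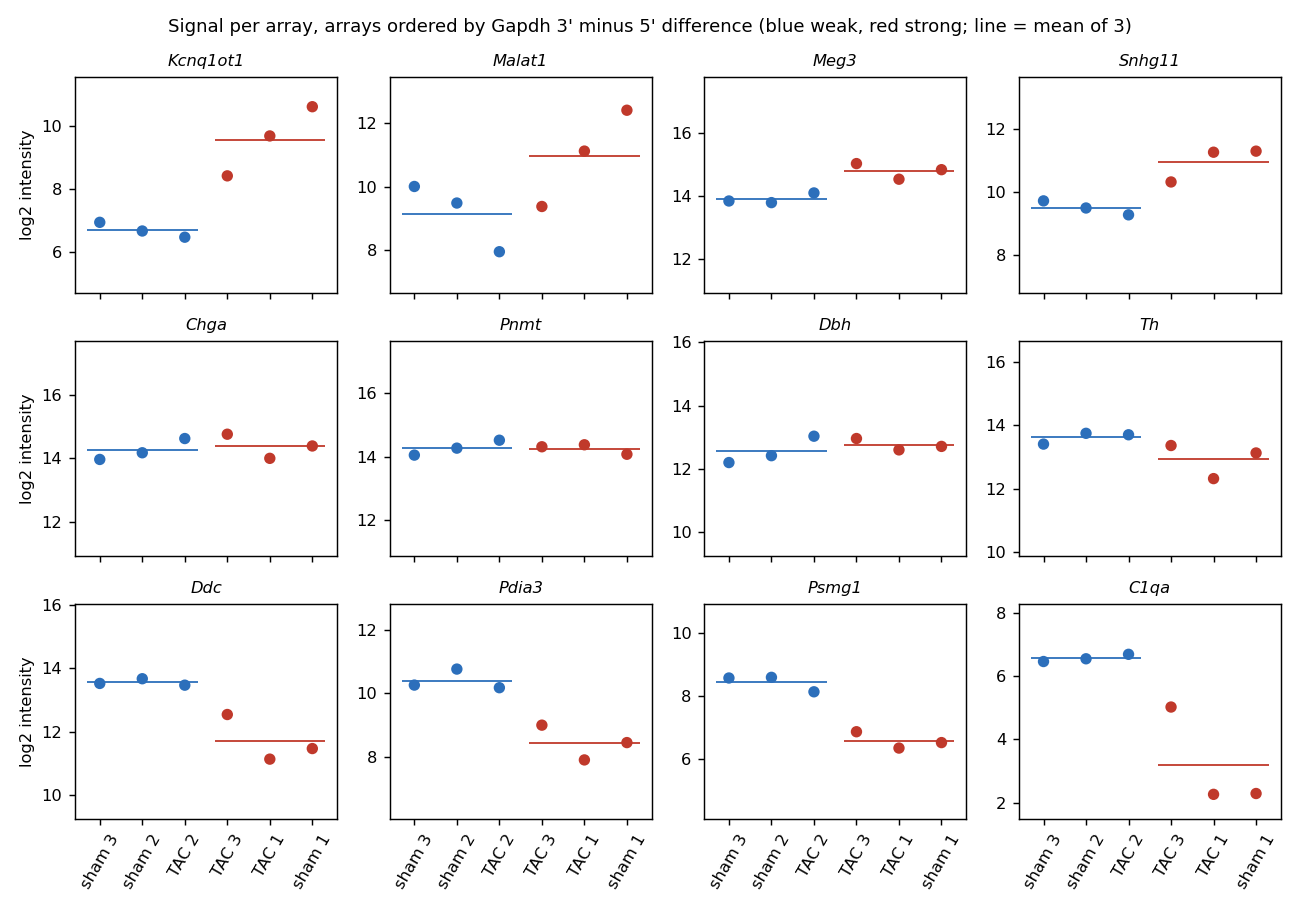
Log2 intensity of 12 genes on each array, arrays ordered from left to right by the Gapdh 3′ minus 5′ difference; blue points are weak and red points strong arrays, lines are means of 3, and every panel spans the same number of log2 units. Kcnq1ot1, Meg3 and Snhg11 are higher on all strong arrays, Chga, Pnmt and Dbh overlap between the sides, and Ddc, Pdia3, Psmg1 and C1qa are lower on all strong arrays.

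The proteasome, the cell's main protease for ubiquitin-tagged proteins, stood furthest below the background among the 33 gene lists with at least 5 tested members. Of 44 tested genes of its subunits and assembly chaperones, of 47 on the array, 27 were called lower and 2 higher, 61.4% and 4.55% against 34.2% and 4.14% of all genes. Their median was -1.14, or -0.70 relative to that of all probe sets. The list's mean, centred on each array's median, read 1.57, 1.34 and 1.99 on sham 1, TAC 1 and TAC 3 and 2.04, 2.28 and 2.28 on TAC 2, sham 2 and sham 3, so TAC 3 came close to TAC 2. Psmg1, an assembly chaperone of the core particle, read 6.53, 6.35 and 6.87 against 8.13, 8.59 and 8.57, with a difference of -1.78 ± 0.24 (SE, limma adjusted p = 0.0083). Psmd9, a chaperone of the regulatory particle, went the other way, with 6.61, 6.54 and 6.57 against 4.20, 4.52 and 4.43 and a difference of 2.24 ± 0.17 (SE, adjusted p = 0.006). After centring, 9 members were called lower and 2 higher (20.5% and 4.55%), against 12.5% in each direction over all genes.

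Other housekeeping and secretory classes had medians below the background by less. Over all genes the median was -0.53 and 34.2% were called lower, while the offsets given here are relative to all probe sets, at -0.44. The vacuolar proton pump, which acidifies the chromaffin granule, had 7 of 14 members called lower (50%) and 0 called higher. All 14 fitted differences were below 0, with a median of -1.02 (-0.57 relative to all). The catalytic subunit Atp6v1a read 8.28, 7.98 and 9.72 on sham 1, TAC 1 and TAC 3 and 10.44, 10.63 and 10.51 on TAC 2, sham 2 and sham 3 (difference -1.94 ± 0.49 SE, limma adjusted p = 0.028). After centring 1 of the 14 was called (7.14% lower, against 12.5% over all genes). Chaperones and folding sensors of the endoplasmic reticulum had 8 of 19 called lower (42.1%, median -0.79, -0.35 relative to all). Among them were Pdia3, a disulfide isomerase, at -1.90, and Atf6, a sensor of unfolded protein, at -2.53. After centring 3 were called lower and 2 higher. Heat shock proteins had 7 of 14 called lower (50%, median -0.77, -0.32 relative to all), and these include the mitochondrial chaperones Hspe1 (-1.24), Hspd1 (-1.40) and Hspa9 (-1.43). After centring 1 of the 14 was called lower. In glycolysis 4 of 14 were called lower (28.6%, under the 34.2% over all genes, median -0.71), with Tpi1, triosephosphate isomerase, at -1.99. After centring 2 of the 14 were called lower. Nuclear-encoded respiratory chain subunits had 24 of 73 called lower and 0 higher (32.9%), which is near the 34.2% over all genes, with a median of -0.64 (-0.19 relative to all).

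Several classes had medians near or above the background, which was -0.53 over all genes with 34.2% called lower and 4.14% higher. Cytosolic ribosomal proteins (45 of 49 passed the filter) had a median of -0.40, 0.04 above that of all probe sets, and 9 were called lower (20.0%) and 1 higher (2.22%). Rps29 read 14.97, 14.99 and 14.82 on sham 1, TAC 1 and TAC 3 and 15.23, 15.23 and 15.05 on TAC 2, sham 2 and sham 3 (difference -0.24 ± 0.18 SE, limma adjusted p = 0.309), and its direction turns to 0.26 when arrays are centred. Genes with very long coding sequences stood at -0.38 (47 genes, 0.07 above all), with 8 called lower (17.0%) and 2 higher (4.26%). After centring 12 of them were called higher and 0 lower, 25.5% and 0% against 12.5% in each direction over all genes. Ahnak, which encodes a giant scaffold protein, was lower by -1.20 (adjusted p = 0.0425), Dync1h1, the dynein heavy chain, differed by -0.41 (0.128), and Kmt2d, a histone methyltransferase, was higher by 1.13 (0.0175). Grouped by the span of the gene in the genome, genes under 10 kb, of 10 to 30 kb, of 30 to 100 kb and over 100 kb had medians of -0.48, -0.53, -0.56 and -0.56 with 1 probe set per gene, a spread far smaller than within any of these groups. Span counts introns, so it is no measure of the length of the message. Splicing factors (-0.40), zinc finger genes (-0.50) and the exocytosis machinery (-0.44) had medians between those over all genes and all probe sets or just above them. Ion channels stood above it: voltage-gated calcium and sodium channels at 0.28 (17 genes, 0.72 above all, 11.8% called higher and 23.5% lower) and potassium channel genes at -0.10 (30 of 83 passed, 0.34 above all, 6.67% called higher and 16.7% lower). In the first of these lists Scn8a, a neuronal sodium channel, was higher by 1.45 (limma adjusted p = 0.0079) and Cacnb2, a calcium channel subunit, lower by -1.25 (0.009), but Cacnb2 was under log2 4 on all strong arrays and differed by -0.31 with values under 4 set to 4.

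**Figure D4:**
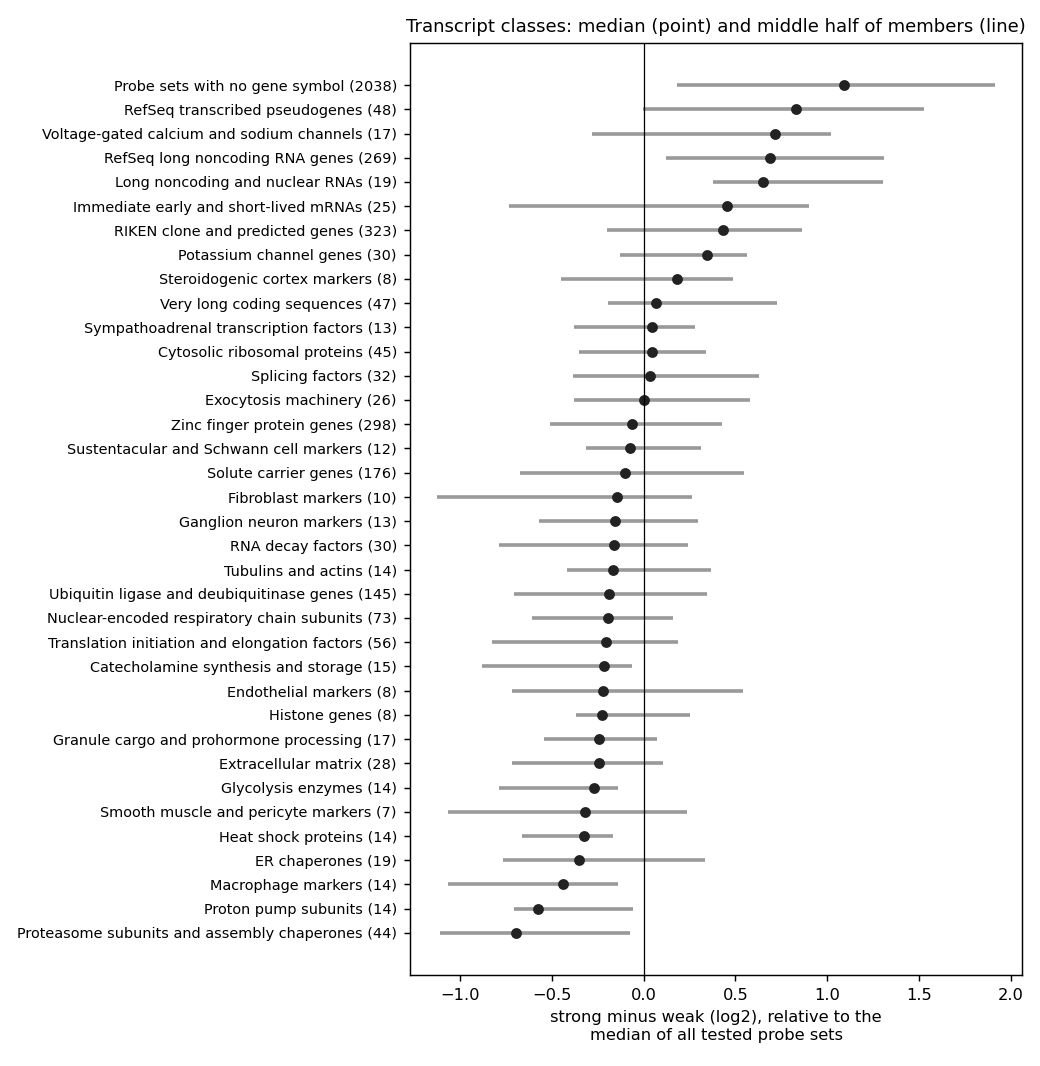
Strong minus weak log2 difference of transcript classes relative to the median of all tested probe sets (-0.44); the point is the class median, the line spans its middle 50% of members, and the number of members follows each name. Probe sets without a symbol, pseudogenes, calcium and sodium channels and noncoding RNAs lie furthest right, at 1.09, 0.83, 0.72 and 0.65 to 0.69, and the proteasome furthest left, at -0.70.

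Read by the probe set of highest mean, the chromaffin cell's own messages differed from one another. Chga and Chgb, the granins that pack the granule, differed by 0.04 ± 0.28 and 0.04 ± 0.26 (SE; limma adjusted p = 0.922 and 0.905), with overlap between the sides. Chga read 14.39, 14.00 and 14.77 on sham 1, TAC 1 and TAC 3 and 14.63, 14.18 and 13.97 on TAC 2, sham 2 and sham 3. Pnmt, which makes adrenaline, differed by -0.13 ± 0.18 (adjusted p = 0.574) and Dbh, which makes noradrenaline, by 0.07 ± 0.24 (0.815). Pnmt turns to 0.37 when arrays are centred. Of the 3 tested probe sets of each of these 2 genes, 1 was called lower, at -1.20 for Pnmt and -0.92 for Dbh. The contrast with Ddc below therefore depends on the probe set. Th, the rate-limiting enzyme, read 13.12, 12.31 and 13.36 against 13.70, 13.74 and 13.40, a difference of -0.66 ± 0.33 that missed the threshold (limma adjusted p = 0.154). Ddc, which turns L-dopa into dopamine, read 11.47, 11.13 and 12.54 against 13.47, 13.67 and 13.52, without overlap (-1.88 ± 0.41 SE, adjusted p = 0.0204; 3.68-fold lower). Ddc was also called after centring (-1.38, limma adjusted p = 0.0245). Its other tested probe set, with a mean of 4.33, differed by 0.04. Of 15 genes of catecholamine synthesis and storage, 5 were called lower and 0 higher (33.3%, near the 34.2% over all genes). Besides Ddc these were Spr, which makes the cofactor of Th, the breakdown enzymes Maoa and Maob, and the transporter Slc18a1, whose other tested probe set was called higher by 2.00. After centring 4 of the 15 were called lower and 0 higher (26.7% lower, against 12.5% in each direction over all genes). Of 17 genes of granule cargo and processing, 4 were called lower and 0 higher (23.5% lower, under the 34.2% over all genes). These were Vip, a neuropeptide, Ptprn2, a granule membrane protein, Scg5, a chaperone of prohormone cleavage, and Cpe, which trims the cleaved peptides. After centring 0 of the 17 were called.

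Immediate early messages are induced soon after a cell is stimulated and decay quickly. Of 25 immediate early and short-lived messages (of 30 on the array), 7 were called lower and 0 higher (28% lower, against 34.2% over all genes), with a median of 0.01, 0.45 above all. Fos, a subunit of the AP-1 factor, read 11.42, 12.34 and 12.81 on sham 1, TAC 1 and TAC 3 and 14.46, 13.37 and 12.36 on TAC 2, sham 2 and sham 3. The sides overlapped, and the difference within surgery was -1.67 ± 0.34 (SE, limma adjusted p = 0.0181). Jun, its partner, was lower by -1.42 ± 0.20 (adjusted p = 0.0092) and Klf10, a repressor induced by TGF-beta, by -1.75 ± 0.23 (0.008), both without overlap. Egr1, another early factor, read 11.91, 11.54 and 11.86 against 12.27, 11.98 and 10.65, a difference of 0.60 within sham and -0.57 within TAC. The list's median was 0.60 within sham and -0.88 within TAC. Without sham 1 the list stood at -0.48 relative to all probe sets rather than 0.45.

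Markers of other cells were read beside these results, and with bulk tissue fewer cells of a type and less RNA per cell cannot be told apart. Chromaffin markers (6 of 7 passed the filter) averaged 13.03 to 13.48 on the strong and 13.13 to 13.61 on the weak arrays, with overlap. Macrophage markers (4 of the 5 defining ones) averaged 6.91 to 8.28 on the strong and 8.46 to 9.04 on the weak arrays. C1qa, a complement subunit made by macrophages, read 2.29, 2.27 and 5.02 on sham 1, TAC 1 and TAC 3 against 6.69, 6.55 and 6.46 on TAC 2, sham 2 and sham 3, without overlap (difference -3.63 ± 0.75 SE, limma adjusted p = 0.0188; -2.34 when values under log2 4 are set to 4). Mrc1, the mannose receptor, was lower by -1.46 (adjusted p = 0.0082), whereas Csf1r, the receptor that sustains macrophages, differed by -0.07 (0.83). Fibroblast markers (7 of 7) averaged 6.12 to 7.05 against 7.41 to 8.51, with 3 called lower. The longer list of 10 fibroblast genes had a median of -0.59 with 30% called lower, near the -0.53 and 34.2% over all genes. Endothelial markers (3 of 6) averaged 3.71 to 4.27 against 4.66 to 5.29, near the floor of log2 4. Of these 3, 2 were called lower and 1 had a difference above 0, and Emcn was under log2 4 on all strong arrays. The averages are not centred on the array medians. Smooth muscle and pericyte markers (4 of 5) averaged 6.78 to 7.89 against 7.37 to 7.74, with 0 called. Glia markers (2 of 4) averaged 6.07 to 6.43 against 6.14 to 6.71, with 1 called lower. Both overlapped between the sides. Neuron markers (5 of 5) averaged 4.99 to 5.93 against 6.03 to 6.64, with 2 called lower. Cortex markers (5 of 7) spread from 5.45 to 9.04 on the strong and from 5.90 to 10.82 on the weak arrays, highest on sham 3. None of the 3 blood markers passed the filter. The part of cell makeup in the class differences was not tested.

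Probe sets of 1 gene often parted. Of 3647 genes with several tested probe sets, 222 had at least 1 called higher and at least 1 called lower, and 551 spanned 2 or more log2 units. Over 8181 such pairs within a gene, 66.2% had differences of the same sign, and of the 1587 pairs with both called, 81.5%. Lrp1, a large endocytic receptor, had 1 probe set of each kind: the first read 8.40, 8.64 and 8.25 on sham 1, TAC 1 and TAC 3 and 5.44, 5.22 and 4.72 on TAC 2, sham 2 and sham 3, while the second was lower (differences 3.22 and -1.05, limma adjusted p = 0.006 and 0.017). Coa8, a cytochrome oxidase assembly factor, had differences of 2.70 and -1.04, and Ntmt1, an N-terminal methyltransferase, of 3.47 and -1.59. The widest spans belonged to Tmbim4, a regulator of cell death (2.68 and -2.66), Tbc1d9b, a Rab GTPase regulator (4.44, -0.39 and -0.69), Kantr, a noncoding RNA (2.65, -0.55 and -2.45), Serinc1, a membrane protein (1.31 to -3.56) and Rtn4, the neurite growth inhibitor Nogo (1.96 to -2.87). The upper probe sets of Tmbim4 and Tbc1d9b were under log2 4 on all weak arrays and so passed the filter through the strong arrays alone. With a floor at log2 4 their differences were 1.24 and 3.14. The upper probe sets of Coa8 and Tbc1d9b, and the brightest of Dbh, Rpl41 and Meg3, carry the suffix x, so their probes can also bind other transcripts. In Rpl41, which encodes the smallest ribosomal protein, the brightest probe set differed by -0.24 and the others reached 2.38. Actb, which encodes beta-actin, had 1 probe set called higher at 1.30 and another at -0.36 (limma adjusted p = 0.16). Pnmt and Dbh also had 1 probe set each that was called lower, at -1.20 and -0.92. Of all genes with several tested probe sets, 51.1% had every one lower on the strong arrays and 7.32% every one higher. Noncoding RNAs varied among themselves in this. All 6 probe sets of Malat1 had higher values on the strong arrays (0.80 to 3.64, 4 called), 10 of 11 of Meg3 were called higher and the last differed by -1.74 (limma adjusted p = 0.16), and all 3 of Kcnq1ot1 were called higher. Rian, an imprinted host of small nucleolar RNAs, ranged from -0.96 to 2.42 over 4 probe sets, with 3 called higher. Snhg1, Snhg14 and Gas5, further hosts of such RNAs, also had probe sets of both signs, with 2 of 4, 1 of 2 and 0 of 3 called lower and none called higher. The position of each probe set along its transcript was not used here, so no distance from the 3′ end is given.

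**Figure D5:**
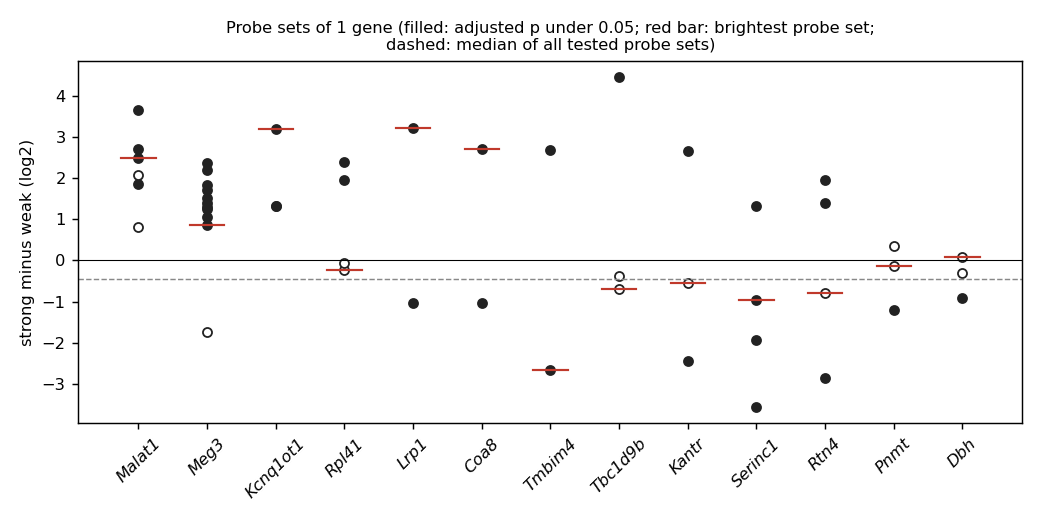
Strong minus weak log2 difference of every tested probe set of 13 genes; filled points passed an adjusted p of 0.05, open points did not, the red bar marks the probe set of highest mean that stands for the gene, and the dashed line is the median of all tested probe sets. The points of Malat1 and Kcnq1ot1 lie above 0 throughout, whereas those of Lrp1, Coa8, Tmbim4, Kantr, Serinc1 and Rtn4 lie on both sides of it.

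The largest differences of single genes, by the probe set of highest mean, were of mixed function. Highest on the strong arrays was Bzw2, a translation regulator, which read 12.22, 10.12 and 11.47 on sham 1, TAC 1 and TAC 3 and 7.82, 8.25 and 6.12 on TAC 2, sham 2 and sham 3 (16.1-fold, 4.01 ± 0.78 SE, limma adjusted p = 0.0168). After it came Ntmt1 (3.47), the peptide transporter Slc15a2 (3.29), Lrp1 (3.22), Kcnq1ot1 (3.18), Pramel34 (3.10) and Tmem86b, a lysoplasmalogenase (3.09). Next stood the pheromone receptor Vmn2r84 (2.88), the amino acid transporter Slc7a13 (2.79), the ribosomal pseudogene Rps15a-ps6 (2.75), the testis kinase substrate Tsks (2.71) and Coa8 (2.70). Vmn2r84, Slc7a13 and Rps15a-ps6 were under log2 4 on all weak arrays, and with a floor at 4 their differences were 2.48, 1.77 and 2.03. Lowest was Sae1, a subunit of the SUMO-activating enzyme, with 4.45, 4.43 and 8.03 against 8.84, 9.57 and 9.47 (14.3-fold lower, -3.84 ± 1.05 SE, adjusted p = 0.034); TAC 3 lay near the weak arrays. C1qa (-3.63), Dld, a dehydrogenase subunit of the pyruvate complex (-3.59), Csrnp3 (-3.49), the nucleoside transporter Slc29a1 (-3.47), Rabac1, a regulator of Rab proteins (-3.38), Jagn1, a protein of the endoplasmic reticulum (-3.33), the RNA methyltransferase Nsun3 (-3.30), Stard3nl (-3.28), the aspartate aminotransferase Got1 (-3.27), the dehydrogenase Dhrs1 (-3.26) and Spryd4 (-3.22) followed. Nsun3, Stard3nl and Spryd4 were under log2 4 on all strong arrays, and with the floor their differences were -2.29, -1.36 and -1.97. These 24 genes were picked for size among called genes whose sides did not overlap, so their lack of overlap is no finding; of all tested probe sets 50.4% had none (15.5% higher and 34.9% lower on the strong arrays).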

How the data were processed

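Per the labels' protocols, medulla was microdissected from cryosections of 12 µm and RNA was amplified in 2 cycles. The values deposited by the authors are linear, background-corrected intensities, 1 for each probe set on each array, and the submitters' processing notes name GCRMA. GCRMA shrinks dim probes towards a common background, so values under log2 4 carry little order. Values were log2-transformed with no further scaling. Of the 45101 probe sets, 64 array controls were left out of all tests. The filter kept 18188, of which 15646 have 1 symbol in GEO's platform annotation.

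The strong minus weak difference was fitted in limma 3.58.1 under R 4.3.3 (surgery as covariate, 3 residual degrees of freedom, 2-sided, Benjamini-Hochberg over all tested probe sets, threshold 0.05). The fitted difference is the mean of the differences within sham and within TAC. A gene stands with its probe set of highest mean. Array measures were tested by exact permutation. The procedure was tested on simulated data. RefSeq gave biotypes and gene spans (assembly GRCm38.p6, no coordinates used).

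The arrays, gene lists and tests were chosen with earlier results of these data known. Genes were named by rule: up to 12 per direction by size among called genes without overlap, the 2 smallest p per list, a set of 24 genes whatever their values, and the 6 with the widest span between probe sets. From these, part are printed. Gapdh and Ubb had no tested probe set with 1 symbol. Hspd1, Hspa9, Maob, Slc18a1, Vip, Cpe, Neat1, Tug1, Csf1r, Rian, Snhg1, Snhg14 and Gas5 were chosen after their values were seen. Classes by protein length were not run.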

Additional observations from a re-analysis of the deposited data

Results flagged for a closer look

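Some results had opposite signs within sham and within TAC. Dbh was 0.40 higher on the strong array within sham and differed by -0.25 within TAC, and the limma interaction test gave an adjusted p of 0.897. The other cases are list medians relative to the array median, for which the difference between sham and TAC was not tested, and each side of them rests on 1 or 2 arrays. Immediate early messages read 1.05 within sham and -0.62 within TAC. Fibroblast markers read 0.24 and -0.75, and markers of sustentacular and Schwann cells, the glia of the medulla, 0.27 and -0.10. Splicing factors went the other way, with -0.19 within sham and 0.41 within TAC. The exocytosis machinery did likewise with -0.23 and 0.37, and ganglion neuron markers with -0.17 and 0.09.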

How the results depend on the processing

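The 7662 calls became 4714 with quantile normalization (48.4% lower), 4956 with cyclic loess (45.7% lower), 3446 with no filter, 4645 with a mean of log2 6 or more, and 4900 without the surgery covariate. Other settings gave 5634 to 8006. Leaving out each array in turn gave 0 to 10037, the 0 without sham 1. The median over all probe sets was -0.59 with the filter on a mean of log2 6 and turned to 0.069 with no filter, while leaving out an array gave -0.46 to -0.40. For the spikes' 3′ minus 5′ difference that range was -0.021 to 0.47. The fit with the replicate number as a block called 54 probe sets, with a median of -0.28. Sham and TAC arrays of the same number, as deviations from their surgery's mean, correlated at 0.76, 0.78 and -0.22. Sham 1 and TAC 1 are both strong, sham 2 and TAC 2 both weak, and sham 3 and TAC 3 on opposite sides. These correlations therefore follow the split and cannot show whether the numbers pair the animals. Under the block Th turned to 0.38, Col1a1 to -0.10, Col3a1 to 0.28, Ahnak to 0.12, Rpl41 to 0.66, Tmsb4x to 0.23 and Eef1a1 to 0.23, and relative to all probe sets the medians of 15 lists turned, among them proton pump 0.03, respiratory chain 0.03, glycolysis 0.11, catecholamine 0.26, granule cargo 0.25, macrophage 0.04, ganglion neuron 0.12, and the calcium and sodium channels -0.23.

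Other genes turned with the scaling. Centred arrays gave Pcx 0.024, Pnmt 0.37, Dync1h1 0.10, Rpl41 0.27, Rps29 0.26 and Tmsb4x 0.19. Quantile normalization gave Pnmt 0.10, Dync1h1 0.14, Rpl41 0.15 and Tmsb4x 0.13, and cyclic loess gave Pnmt 0.15, Dync1h1 0.21, Rpl41 0.19, Tmsb4x 0.19 and Kantr 0.052. Map1b was -0.25 without the surgery covariate, and Col1a1 -0.039 without TAC 2 and TAC 3. Leaving out each array in turn took Dbh from -0.25 to 0.40, Chga from -0.24 to 0.32, Chgb from -0.18 to 0.26, Egr1 from -0.57 to 0.60, Col1a1 from -0.039 to 0.64 and Map1b from -0.18 to 0.90. Of 112 named genes, 91 lost their call without sham 1. Relative to all probe sets, probe sets without a symbol stayed between 0.44 and 1.16, long noncoding RNAs between 0.21 and 1.27, and the proteasome between -0.93 and -0.27 over all settings tried. The causes of the other shifts were not tested. Low signal limits the genes under log2 4 on 1 side.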

Other observations

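Histone genes, many of whose messages lack a poly-A tail, were thinly measured: 8 of 18 on the array passed the filter, with 3 called lower and 1 higher on the strong arrays (37.5% and 12.5%, against 34.2% and 4.14% over all genes). H1f2, a linker histone, read 12.58, 12.95 and 12.67 on sham 1, TAC 1 and TAC 3 and 13.81, 13.69 and 13.65 on TAC 2, sham 2 and sham 3 (difference -1.05 ± 0.18 SE, limma adjusted p = 0.0137). H2bc18, a core histone gene, was higher by 2.00 ± 0.30 (limma adjusted p = 0.0099) and under log2 4 on 2 of the 3 weak arrays. RNA decay factors had 13 of 30 called lower (43.3%) and 2 higher, with a median of -0.60 against -0.53 over all genes. After centring 5 of the 30 were called lower and 3 higher (16.7% and 10%, against 12.5% in each direction over all genes). Exosc5, a subunit of the RNA exosome, and Xrn2, a nuclear exonuclease, differed by -2.62 and -1.98, and both were under log2 4 on all strong arrays (-1.79 and -1.10 with a floor at 4). Among translation factors 20 of 56 were called lower (35.7%, near the share over all genes) and 1 higher (median -0.65), with Eif6, which keeps ribosomal subunits apart, at -2.02, and the kinase Eif2ak2, which blocks initiation, as the 1 called higher at 2.13. Ganglion neuron markers had 6 of 13 called lower (46.2%), among them the microtubule regulator Stmn2 (-1.89) and the RNA-binding protein Elavl4 (-1.21). After centring 1 of the 13 was called lower and 1 higher (7.69% each, against 12.5% in each direction over all genes). Stmn2 then kept its call and Elavl4 lost it (limma adjusted p = 0.031 and 0.085).

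By the source sequence of the probe set, a class chosen after values were seen, those built on full-length cDNA clones of the BC series had a median of -0.73 (1606 probe sets) and those on RefSeq transcripts -0.71 (2748). Those on RIKEN expressed sequence tags had -0.30 (4075).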
